A study of Mus musculus with 8 samples.

Results

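Glucocorticoid signalling in the heart was described here through 10 genes, 2 that decide how much hormone signal a cell receives and 8 that the hormone is known to induce. The receptor side held Nr3c1, which encodes the glucocorticoid receptor, and Hsd11b1, which encodes the enzyme that regenerates active hormone. The targets were Fkbp5, Tsc22d3, Per1, Zbtb16, Fam107a, Hif3a, Sgk1 and Cebpd. All 10 were found by symbol among the 33105 genes of the deposited count table, and all 10 passed the filter on low counts that left 16603 genes tested. They were selected on their known roles and, with earlier results of these counts in view, on their log2 fold changes between MR and Sham, so those differences are given as a description and without p-values.

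RNA was sequenced from heart tissue of C57BL/6J mice after minimally invasive surgery that caused mitral regurgitation, a leak of the mitral valve (MR, 4 libraries), and after a Sham procedure (4 libraries). A leaking mitral valve returns blood to the left atrium with each beat and loads the heart with volume, and the study set out to find pathways and genes tied to the hypertrophy that follows. No transgene, drug or other allele is named for either group in the sample labels. The age of the mice, the time after the operation, the part of the heart taken and any hormone level are not stated in those labels.

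In the absence of hormone the glucocorticoid receptor is held in the cytoplasm by Hsp90 and its cochaperones. Once it binds corticosterone, the main glucocorticoid of mice, it moves into the nucleus and binds response elements in DNA, where it induces some genes and restrains inflammatory ones. In heart muscle cells the mineralocorticoid receptor binds the same hormone, because the enzyme that would inactivate it is scarce. Loss of the glucocorticoid receptor from the heart muscle cells of mice leads to heart disease, and an excess of the hormone can itself enlarge the heart.

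The stretches of DNA that hold a recognition motif next to the start of a target are shown first, because they are where the receptor or a clock factor could bind close to the gene. Promoter windows from RefSeq (GRCm38.p6, 250 bases before each annotated start) were matched for 7 of the 10 genes, in 17 windows, and Nr3c1, Zbtb16 and Cebpd are named only. The palindromic glucocorticoid response element was searched as GNACA and TGTNC with 3 bases of any kind between them, which reads the same on both strands. It stood in 3 of the 17 windows, before starts of Fam107a and Sgk1, and in 127 of all 32851 windows (0.387%). The Fam107a windows that hold it overlap and share the same site. The E-box of clock factors, CACGTG, which does not overlap those matches, stood in 3 of the 17 windows and in 6.02% of all windows. The windows with the E-box were those of Fkbp5, Per1 and Sgk1. A gene with several windows has more chances of a match. Capitals mark the response element in the first pair of sequences and the E-box in the second pair.
Fam107a: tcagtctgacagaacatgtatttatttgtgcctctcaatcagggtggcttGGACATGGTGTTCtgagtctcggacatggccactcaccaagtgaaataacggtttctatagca
Sgk1: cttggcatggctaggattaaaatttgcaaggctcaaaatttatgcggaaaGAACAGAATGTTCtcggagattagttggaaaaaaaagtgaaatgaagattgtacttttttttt
Fkbp5: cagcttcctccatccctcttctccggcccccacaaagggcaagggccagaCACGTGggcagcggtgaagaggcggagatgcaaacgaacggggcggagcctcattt
Per1: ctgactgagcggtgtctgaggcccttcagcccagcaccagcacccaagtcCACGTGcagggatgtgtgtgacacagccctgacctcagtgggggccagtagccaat

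The Fam107a stretch is chr14:8309835-8309947 on the minus strand, with the element 118 bases before one of the gene's starts. The Sgk1 stretch is chr10:21993652-21993764 on the plus strand, with the element 188 bases before one of several starts of that gene. The Fkbp5 stretch is chr17:28486263-28486368 on the minus strand and the Per1 stretch chr11:69098733-69098838 on the plus strand. In them the E-box lies 169 bases before a start of Fkbp5 and 166 bases before a start of Per1. Each of the 4 stretches lies inside its own gene, before a start that is not the outermost one, and holds 0 bases of any annotated exon. The half-site AGAACA was searched on both strands and is able to overlap the full element. It occurred in 6 of the 17 windows, before Fam107a, Sgk1 and Tsc22d3, and in 16.1% of all windows. A match is a run of letters and no measurement of binding, and these windows leave out the distant elements through which many of these genes are known to respond.

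Total counts ran from 42291511 to 58658094 per library in MR and from 43535272 to 46264464 in Sham, and 1 count was worth 0.0167 to 0.0237 CPM (counts scaled to a common library size). The members held 103 to 6965 counts per library, far above what a count of 0 allows (3 counts, or 0.0502 to 0.0711 CPM, counting error only). On the first principal component of log2 CPM, with 30.5% of the variance, Sham replicate 3 lay at 7.18, near the MR libraries at 12.6 to 22.8 and apart from the other Sham libraries at -32.4 to -15.7. Sham replicate 1 stood apart on the second, at 31.2 against -19.3 to 19.7 in the other 7 libraries. Over all genes, 40 passed on the higher side in MR and 36 on the lower side (53 and 17 when libraries were scaled by their totals alone). Without Sham replicate 3 the count of genes past the threshold was 887 instead of 76, and Fam107a and Hif3a were the members past it. Without any one of the other libraries it was 3 to 93.

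Across the 8 targets, mean levels were lower in MR than in Sham hearts by more than their standard error for 7. Zbtb16 was at a log2 fold change of -0.03, Hsd11b1 at -0.06 and Nr3c1 at 0.16. The largest differences were in Fam107a, 1.77-fold lower in MR, and in Fkbp5 and Hif3a, with log2 fold changes of -0.69 and -0.66. In the fit over all genes 1 of the 10 members, Fam107a, passed a false discovery rate of 0.05, where 0.458% of all genes tested did, 0.241% on the higher and 0.217% on the lower side. DESeq2 passed Fam107a and Hif3a, as it did 4.14% of all genes (2.01% on the lower side), and limma-voom passed the same pair, as it did 2.58% (1.22% on the lower side). In 2 of the 10, Fam107a and Hif3a, every MR value lay below every Sham value, as in 3.91% of all genes tested, while 4.19% had every MR value above (8.09% in either direction). Since the members were chosen with these differences known, nothing is read from these counts. The median log2 fold change of the 8 targets was -0.38, against 0.002 over all genes tested, of which 49.6% had a negative value.

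**Figure D1:**
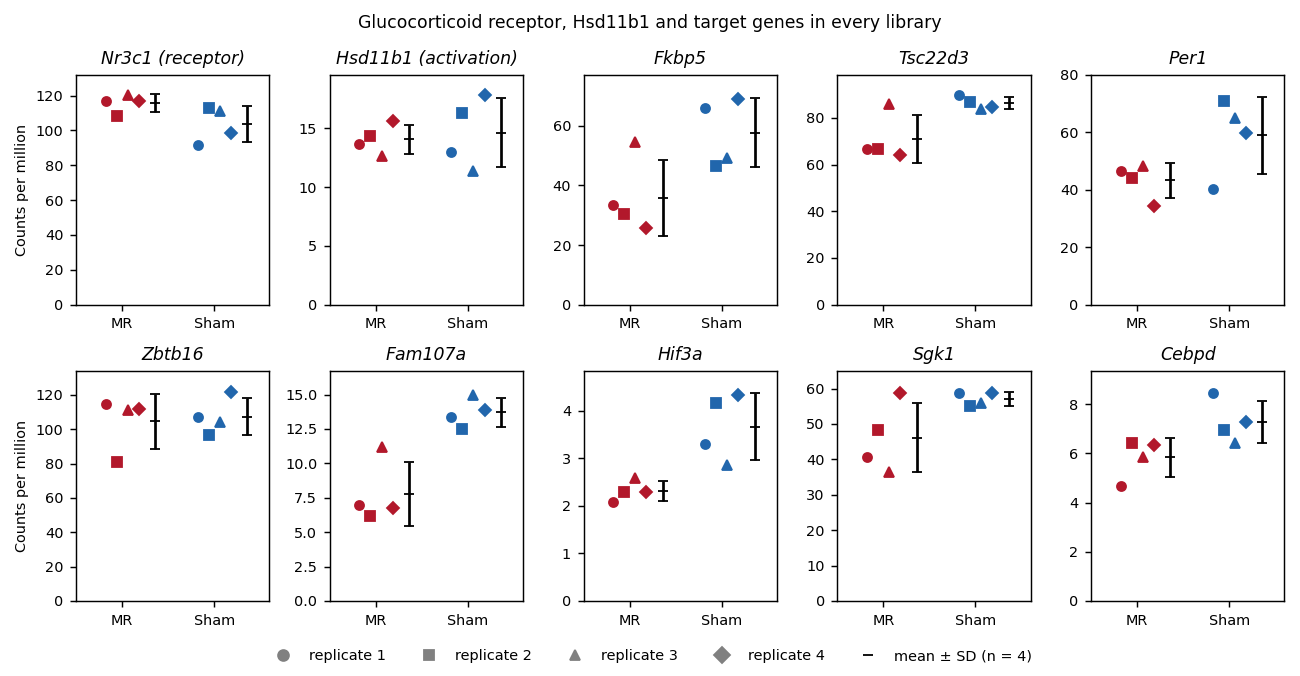
CPM (vertical axis, from 0) of the receptor gene Nr3c1, the activating enzyme gene Hsd11b1 and the 8 targets in the 4 MR libraries (red, left) and the 4 Sham libraries (blue, right), with marker shapes for replicates and black bars for the mean ± SD. Fam107a and Hif3a show no overlap between groups, and MR replicate 3 (triangle) lies at the height of the Sham libraries in Fkbp5 and Tsc22d3.

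On the receptor side, Nr3c1 (ENSMUSG00000024431, protein-coding, chromosome 18, 39410545 to 39519421, minus strand, GRCm38) had 117, 108, 120.2 and 117 CPM in MR replicates 1 to 4, against 91.5, 113, 111 and 98.7 CPM in Sham replicates 1 to 4. The groups overlapped, with Sham replicates 1 and 4 low and MR replicate 2 within the Sham range. The log2 fold change was 0.16 (SE 0.08), and it was 0.09 without Sham replicate 1.

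Hsd11b1 encodes 11-beta-hydroxysteroid dehydrogenase type 1, which turns inactive 11-dehydrocorticosterone back into corticosterone inside the cell. The gene (ENSMUSG00000016194, protein-coding, chromosome 1, 193221634 to 193264075, minus strand) had 13.7, 14.3, 12.6 and 15.6 CPM in MR, against 13.0, 16.3, 11.4 and 17.8 CPM in Sham. The MR values lay inside the Sham range, and the log2 fold change was -0.06 (SE 0.13). The sign of this value turned without Sham replicate 4, where it was 0.05. Hsd11b2, whose product inactivates corticosterone and so protects the mineralocorticoid receptor in kidney, was too low to be tested, with 0 to 6 counts per library.

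Among the targets, Fkbp5 is the classic readout of receptor activity. It encodes FKBP51, a cochaperone that lowers the hormone affinity of the receptor and thereby closes a negative feedback loop. Fkbp5 (ENSMUSG00000024222, protein-coding, chromosome 17, 28399094 to 28517527, minus strand) had 33.3, 30.3, 54.5 and 25.7 CPM in MR, against 66.0, 46.6, 49.3 and 69.2 CPM in Sham. MR replicates 1, 2 and 4 lay below all Sham libraries, while MR replicate 3 lay above Sham replicates 2 and 3. The mean was 36.0 ± 12.8 CPM in MR and 57.8 ± 11.5 CPM in Sham (SD, n = 4), with a log2 fold change of -0.69 (SE 0.25).

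Tsc22d3 encodes GILZ, a leucine zipper protein that carries part of the anti-inflammatory action of glucocorticoids. The gene (ENSMUSG00000031431, protein-coding, chromosome X, 140539528 to 140600659, minus strand) had 66.5, 66.7, 86.0 and 64.1 CPM in MR, against 89.8, 86.6, 83.9 and 84.7 CPM in Sham. The Sham libraries lay close together, and MR replicate 3 alone among the MR libraries reached into their range. Its log2 fold change was -0.28 (SE 0.09).

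Fam107a encodes a small actin-associated protein that stress and glucocorticoids induce in the mouse brain. The gene (ENSMUSG00000021750, protein-coding, chromosome 14, 8296274 to 8318023, minus strand) had 6.96, 6.18, 11.2 and 6.72 CPM in MR, against 13.4, 12.5, 15.0 and 13.9 CPM in Sham. All MR values lay below all Sham values, with MR replicate 3 the nearest to Sham, and the mean was 7.77 ± 2.33 CPM in MR and 13.7 ± 1.04 CPM in Sham (SD, n = 4). The log2 fold change was -0.82 (SE 0.16). The call was lost without MR replicate 1, 2 or 4 and without Sham replicate 1, 2 or 4, although the log2 fold change stayed between -1.05 and -0.73 in all 8 fits that left out a library. A response element printed above lies before a start of Fam107a, as another does before a start of Sgk1. The part of these elements in the levels was not tested.

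Hif3a encodes a hypoxia-inducible factor subunit, some forms of which oppose the other subunits. The gene (ENSMUSG00000004328, protein-coding, chromosome 7, 17031507 to 17062427, minus strand) had 2.08, 2.30, 2.58 and 2.29 CPM in MR, against 3.30, 4.17, 2.86 and 4.32 CPM in Sham. The groups did not overlap, with Sham replicate 3 the nearest to MR. The log2 fold change was -0.66 (SE 0.16), from counts of 103 to 200 per library, the lowest among the members.

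Per1 encodes a repressor of the circadian clock that glucocorticoids induce directly. The gene (ENSMUSG00000020893, protein-coding, chromosome 11, 69095217 to 69109960, plus strand) had 46.4, 44.1, 48.2 and 34.5 CPM in MR, against 40.2, 71.0, 64.9 and 59.9 CPM in Sham. Sham replicate 1 lay below 3 of the MR libraries, and the other Sham libraries lay above all of MR. The log2 fold change was -0.45 (SE 0.17), and -0.60 without Sham replicate 1, where Per1 passed the threshold over all genes.

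Sgk1 encodes a serine/threonine kinase that glucocorticoids and mineralocorticoids both induce and that regulates ion transport and cell survival. The gene (ENSMUSG00000019970, protein-coding, chromosome 10, 21882184 to 21999903, plus strand) had 40.7, 48.4, 36.5 and 58.7 CPM in MR, against 58.7, 55.0, 55.9 and 58.8 CPM in Sham. MR replicate 4 lay among the Sham libraries, and MR replicate 3, the highest MR library for Fkbp5 and Tsc22d3, was the lowest for Sgk1. Its log2 fold change was -0.31 (SE 0.12).

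Cebpd encodes the transcription factor C/EBP-delta, an early responder to hormones and inflammation. The gene (ENSMUSG00000071637, protein-coding, chromosome 16, 15887286 to 15891031, plus strand) had 4.69, 6.43, 5.86 and 6.35 CPM in MR, against 8.47, 6.94, 6.42 and 7.26 CPM in Sham. The groups met at a single point, where MR replicate 2 and Sham replicate 3 held nearly the same value. Its log2 fold change was -0.32 (SE 0.13). Cebpd shares exon sequence with Spidr on the opposite strand, and with the strand setting not given its value is uncertain.

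Zbtb16 encodes PLZF, a zinc finger transcription factor among the most hormone-responsive genes of many human cell types. The gene (ENSMUSG00000066687, protein-coding, chromosome 9, 48654297 to 48836222, minus strand) had 115, 80.8, 111 and 112 CPM in MR, against 107, 96.5, 104 and 122 CPM in Sham. Apart from MR replicate 2, which was the lowest of the 8 libraries, the values of both groups were mixed. Over all libraries the log2 fold change was -0.03 (SE 0.11). Its sign turned to 0.01 when libraries were scaled by their totals alone or fitted with limma-voom, to 0.07 without MR replicate 2 and to 0.03 without Sham replicate 4.

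**Figure D2:**
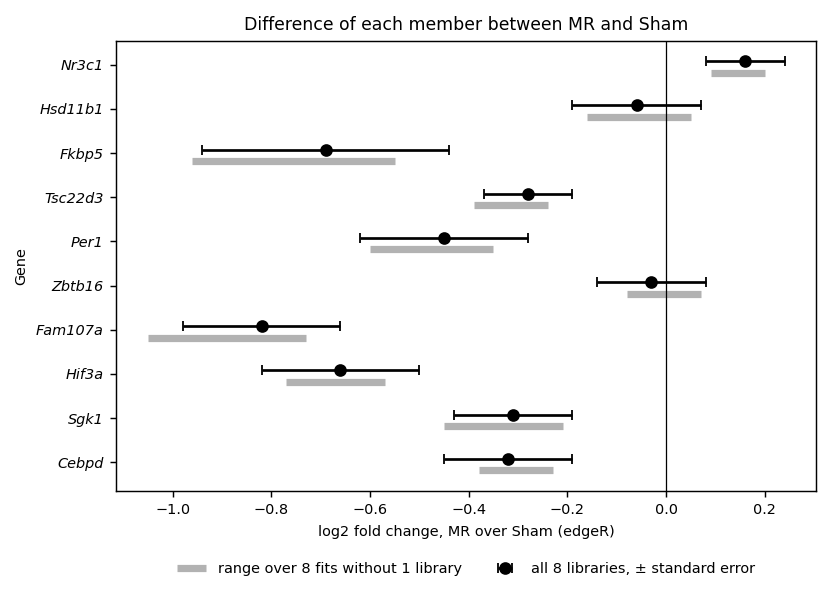
Log2 fold change of MR over Sham (horizontal axis) of each member with all 8 libraries (black points, bars for the standard error) and its range over the 8 fits that each left out a library (grey). Of the targets, 7 stayed below 0 in each of these fits, while the ranges of Hsd11b1 and Zbtb16 cross 0.

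Levels of different genes were set side by side as TPM, transcript counts scaled to a common total, which divides each count by the exon length of its gene. On this scale Zbtb16 averaged 46.5 ± 7.53 TPM in MR and 46.3 ± 6.06 TPM in Sham (SD, n = 4), the highest of the members over all libraries. Tsc22d3 and Nr3c1 followed with 41.7 and 32.9 TPM over the 8 libraries, then Sgk1 with 24.3, Per1 with 21.0 and Fkbp5 with 11.4 TPM. Hsd11b1, Fam107a and Cebpd averaged 7.79, 6.38 and 4.03 TPM, and Hif3a, at 0.808 ± 0.0737 TPM in MR and 1.24 ± 0.267 TPM in Sham (SD, n = 4), was the lowest. The targets with the largest log2 fold changes were thus among the less abundant members, and Zbtb16, the most abundant target, had the smallest.

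The targets did not all vary together from library to library. Over the 8 libraries the Pearson correlation of log2 CPM with Fkbp5 was 0.93 for Tsc22d3, 0.9 for Fam107a and 0.747 for Hif3a. It was 0.56 for Cebpd, 0.477 for Per1, 0.354 for Zbtb16 and 0.149 for Sgk1, and these values include the difference between the groups. Taken over the 8 targets, the median log2 ratio to the Sham mean was -0.56, -0.42, -0.29 and -0.55 in MR replicates 1 to 4, against 0.02, -0.06, -0.04 and 0.04 in Sham replicates 1 to 4. The Sham ratios centre on the Sham mean by construction, and the targets were chosen with their differences known. Nothing is therefore read from the contrast of the groups in these medians. MR replicate 3 was the highest MR library in 5 of the 8 targets (Fkbp5, Tsc22d3, Per1, Fam107a and Hif3a) and the lowest in Sgk1. That library was also the highest in MR for the immediate-early genes Fos, at 4.70 CPM against 1.22 to 2.03 CPM in the other MR libraries, and Egr1, at 18.6 CPM against 9.62 to 11.6 CPM. It stood apart too for Nppa, the atrial natriuretic peptide gene, at 205 CPM against 81.4 to 96.1 CPM. Without it the log2 fold change was -0.96 for Fkbp5, -0.39 for Tsc22d3 and -1.05 for Fam107a, and -0.21 for Sgk1, and the part of these other genes in the result was not tested.

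**Figure D3:**
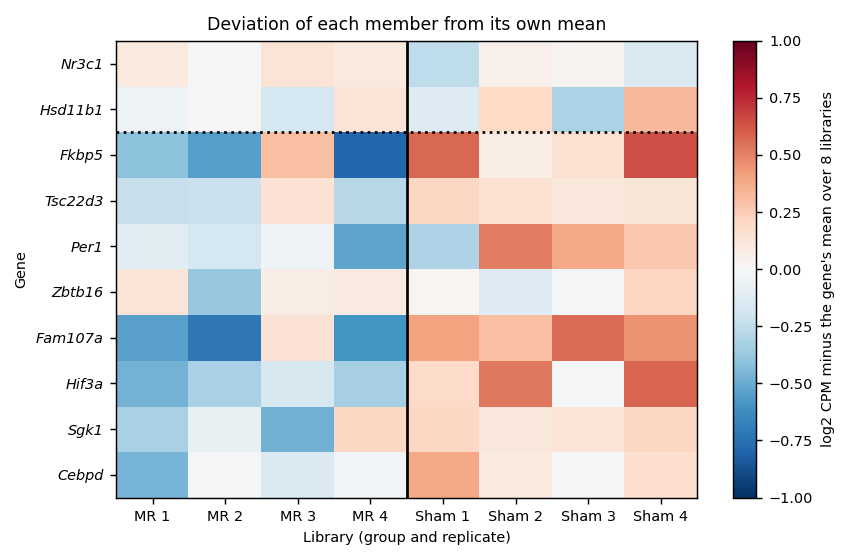
Log2 CPM of each member in each library minus the mean of that gene over the 8 libraries (colour scale from -1 to 1), with MR libraries left of the solid line and the receptor side above the dotted line. MR replicate 3 is near the Sham colours for Fkbp5, Tsc22d3 and Fam107a, and Sham replicate 1 is low for Per1 and Nr3c1.

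The tissue was dominated by heart muscle transcripts, and in bulk tissue fewer cells of a type and less RNA per cell cannot be told apart. The summed level of 6 cardiomyocyte markers was 32852 to 37438 CPM in MR and 37824 to 44524 CPM in Sham, with 0 of the 6 past the threshold in edgeR (4 at an unadjusted p under 0.05, and 3 called by DESeq2 and 0 by limma-voom). The groups did not overlap in this sum, most of which came from Myh6, a myosin heavy chain gene, at a mean of 18923 CPM in MR and 23026 CPM in Sham. Myh6, Tnnt2, Tnni3 and Myl2 had log2 fold changes of -0.36 to -0.28, while Actn2 averaged 1388 CPM in MR and 1392 CPM in Sham and Ryr2 was at a log2 fold change of -0.06. The lower sum in MR thus came from 4 of the 6 markers, and its part in the lower targets was not tested. Endothelial markers summed to 640.5 to 702 CPM in MR and 531 to 667 CPM in Sham, and macrophage markers to 149 to 165 CPM in MR and 162 to 179 CPM in Sham, with 0 of 5 past the threshold in each list in edgeR (2 and 1 at an unadjusted p under 0.05), while Mrc1 of the macrophage list passed in DESeq2 and limma-voom. Fibroblast markers summed to 723 to 797 CPM in MR and 679.5 to 734 CPM in Sham, and 1 of the 5, Col1a1, rose (log2 fold change 0.81, adjusted p = 0.0483). Over all genes tested 0.458% passed in edgeR and 15.1% had an unadjusted p under 0.05, while DESeq2 called 4.14% and limma-voom 2.58%.

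Pericyte and smooth muscle markers summed to 1428 to 1563 CPM in MR and 1264 to 1519 CPM in Sham, with 0 of 5 past the threshold in edgeR (3 at an unadjusted p under 0.05, and Acta2 called by DESeq2). The 4 atrial markers summed to 93.4 to 212 CPM in MR and 45.6 to 70.4 CPM in Sham, mostly from Nppa, with 0 of 4 past it in edgeR (1 at an unadjusted p under 0.05, and Nppa called by DESeq2). The 5 neutrophil markers summed to 3.0 to 5.83 CPM in MR and 8.11 to 56.8 CPM in Sham, without overlap. In edgeR 0 of the 5 passed, with 4 at an unadjusted p under 0.05, and 4 passed in DESeq2 and 0 in limma-voom. They were highest in Sham replicates 4 and 1, the libraries in which Fkbp5 was highest as well, and their part in the result was not tested. Red blood cell markers summed to 343 to 652 CPM in MR and 284 to 515 CPM in Sham. Transcripts of lymphocytes, adipocytes and skeletal muscle summed to at most 4.87 CPM in any library, and adiponectin (Adipoq) was at 0 in MR replicate 1 and Sham replicate 3.

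No gene of the machinery around the receptor passed the test. Of 21 tested genes for chaperones, coregulators and hormone handling, 0 rose and 0 fell in edgeR, with a lowest adjusted p of 0.214. At an unadjusted p under 0.05 there were 3, against 15.1% of all genes tested, and DESeq2 and limma-voom each called 0. The median log2 fold change was -0.003, against 0.002 over all genes. Ppp5c, which encodes a phosphatase of the receptor complex, had 59.6 ± 0.875 CPM in MR and 67.3 ± 4.42 CPM in Sham (SD, n = 4; log2 fold change -0.18, adjusted p = 0.214). Nr3c2, the mineralocorticoid receptor gene, had 24.9 ± 2.36 CPM in MR and 29.8 ± 4.6 CPM in Sham (adjusted p = 0.265). Bag1, a cochaperone gene, was at a log2 fold change of -0.20 (adjusted p = 0.294), and Nrip1, a corepressor gene, at 0.21 (adjusted p = 0.382). H6pd, named for its role in supplying Hsd11b1 with cofactor, had 33.1 ± 3.66 CPM in MR and 36.8 ± 5.57 CPM in Sham (SD, n = 4; adjusted p = 0.546).

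Among 29 other tested genes that glucocorticoids are known to induce, 3 fell in MR, 0 rose and 26 did not pass in edgeR, where 0.458% of all genes passed. This list, like the other gene lists, was chosen with earlier results of these data known, so its counts are a description and nothing is read from them. At an unadjusted p under 0.05 there were 13 of the 29, against 15.1% of all genes tested. DESeq2 called 7 (6 lower in MR, and Bcl6, a transcriptional repressor gene, higher), as it did 4.14% of all genes. The limma-voom fit called 4, all lower, as it did 2.58% of all genes. The median log2 fold change was -0.19, against 0.002 over all genes, and 20 of the 29 values were negative. Klf15, a heart transcription factor gene that controls amino acid and lipid use, fell to 35.4, 37.6, 37.0 and 38.5 CPM in MR, against 44.6, 59.5, 51.1 and 53.2 CPM in Sham (log2 fold change -0.49, SE 0.08, adjusted p = 0.0261). Arrdc2, an alpha-arrestin gene, fell to 11.1, 9.62, 11.7 and 6.10 CPM in MR, against 20.2, 21.7, 17.3 and 20 CPM in Sham (log2 fold change -1.04, SE 0.17, adjusted p = 0.0293). Foxo3, which encodes a forkhead factor of atrophy and stress resistance, fell to 99.0, 96.0, 112 and 106 CPM in MR, against 123, 131, 134 and 143 CPM in Sham (log2 fold change -0.36, SE 0.07, adjusted p = 0.0483). In all 3 genes every MR library lay below every Sham library, as in 5 of the 29 list genes and in 3.91% of all genes tested. In 1 of the 29 every MR library lay above every Sham library, as in 4.19% of all genes tested. Zfp36, the gene of an RNA-binding protein that destabilises cytokine messages, had 15.9 ± 2.01 CPM in MR and 21.0 ± 2.90 CPM in Sham (SD, n = 4; adjusted p = 0.101 in edgeR). It passed in DESeq2 (adjusted p = 0.0278), in limma-voom (adjusted p = 0.032) and in edgeR with no filter (adjusted p = 0.00137).

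Each of these 3 calls was lost in some fits that left out a library. The call of Klf15 was lost without MR replicates 1, 2 and 3 and Sham replicates 2 and 4 (adjusted p 0.0734 to 0.0921), and that of Arrdc2 without MR replicates 1 and 2 and Sham replicates 1, 2 and 4 (0.0607 to 0.107). The call of Foxo3 was lost without each MR replicate and without Sham replicates 2 and 4 (0.0777 to 0.168), as well as when libraries were scaled by totals (0.075). The direction held in each of these fits. The list median was -0.30 without MR replicate 3 and between -0.23 and -0.15 otherwise.

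Inflammatory genes that glucocorticoids restrain in many cell types were mixed. Among 11 that could be tested 1 rose and 0 fell in edgeR, where 0.458% of all genes passed. An unadjusted p under 0.05 was found in edgeR for 6, against 15.1% of all genes tested. DESeq2 called 3 and limma-voom 2, Sele and Mmp9 among them in both, while they called 4.14% and 2.58% of all genes. The list had a median log2 fold change of 0.35 that was -0.03 without MR replicate 1 and -0.02 under a filter of 1 CPM. Sele, which encodes the endothelial adhesion molecule E-selectin, rose to 2.49, 2.13, 2.23 and 2.34 CPM in MR, against 1.11, 1.09, 1.58 and 1.30 CPM in Sham (log2 fold change 0.85, SE 0.17, adjusted p = 0.0483). Its call stayed in 1 of the 8 fits with a library left out, the one without Sham replicate 3, and was lost in 7 (adjusted p 0.0658 to 0.156). Mmp9, a matrix protease gene that neutrophils also carry, had 0.462 ± 0.0709 CPM in MR and 1.37 ± 0.728 CPM in Sham (SD, n = 4; adjusted p = 0.0587). Ptgs2, the gene of inducible cyclooxygenase, was at a log2 fold change of 0.51 (adjusted p = 0.238). Cxcl10 was at 1.07 (adjusted p = 0.109), but its exons overlap those of Art3 on the opposite strand, a far more abundant transcript, so its value is uncertain. Such overlaps were sought for the members, the list genes called or lowest in p, and the genes most like Fkbp5 and Nr3c1. The markers, Hsd11b2, H6pd and Bcl6 were not searched. Of the other genes searched, Cry2, Nr3c2, Zfp36, Cdk2, Plxna1 and Ttc7b share exon sequence with a gene on the opposite strand as well.

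**Figure D4:**
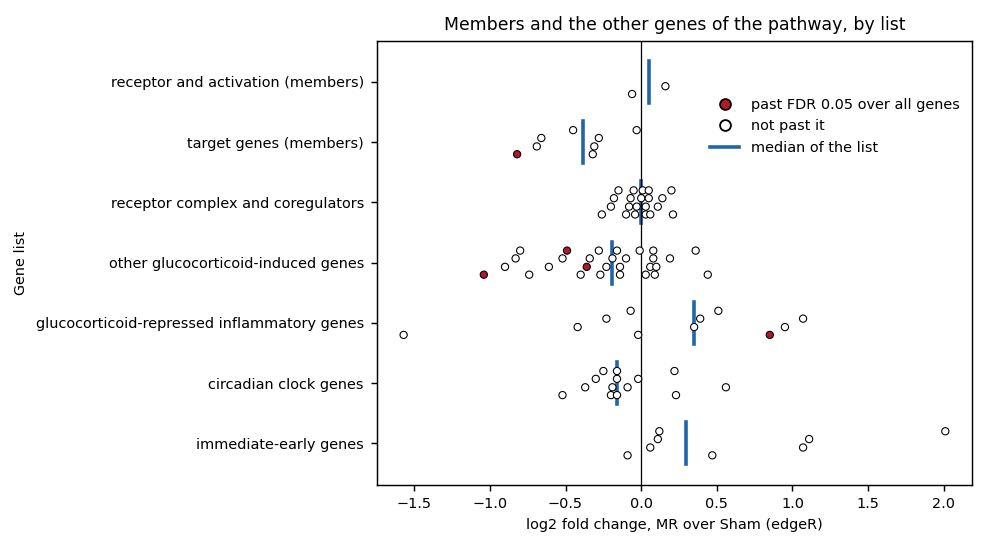
Log2 fold change of MR over Sham (horizontal axis) of every tested gene in each list, with red points for genes past a false discovery rate of 0.05 over all genes and blue bars for list medians. The target members and the other induced genes lie mostly left of 0, with medians of -0.38 and -0.19, and the receptor complex is centred on 0.

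Because Per1 also belongs to the circadian clock and a time of tissue collection is not given, the clock genes were set beside it (Per2 is also in the list of induced genes). Of 14 tested, 0 rose and 0 fell in edgeR (lowest adjusted p 0.152). The median log2 fold change was -0.16, against 0.002 over all genes, with 11 negative values and 3 positive ones. Cry2, a clock repressor gene, had 32.3 ± 0.820 CPM in MR and 37.1 ± 1.88 CPM in Sham (SD, n = 4; adjusted p = 0.152). Per3, a relative of Per1, was at a log2 fold change of -0.25 (adjusted p = 0.194), Per2 at -0.52 (adjusted p = 0.226), and Clock, the activator gene, at 0.23 (adjusted p = 0.25). Of these 14 genes, 8 had an unadjusted p under 0.05 in edgeR, against 15.1% of all genes tested. DESeq2 called 1, Per2, and limma-voom 0, while they called 4.14% and 2.58% of all genes. The part of collection time in the level of Per1 was not tested.

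Sgk1, Cebpd and Per1 respond to acute stress as well, so 8 immediate-early genes were examined, of which 0 rose and 0 fell in edgeR. The median log2 fold change was 0.30, and it was 0.12 without MR replicate 3, 0.13 under the filter of 1 CPM and 0.46 without Sham replicate 3. In edgeR 2 had an unadjusted p under 0.05, against 15.1% of all genes tested. DESeq2 called both, Egr1 and Fos, and limma-voom called Egr1, while they called 4.14% and 2.58% of all genes. Egr1, an early growth response factor gene, had 12.6 ± 4.11 CPM in MR and 5.99 ± 1.15 CPM in Sham (SD, n = 4; log2 fold change 1.07, adjusted p = 0.0529), the opposite sign to the targets. Fos had 2.39 ± 1.57 CPM in MR and 1.10 ± 0.227 CPM in Sham (SD, n = 4; log2 fold change 1.11, adjusted p = 0.192), and its log2 fold change was 0.57 without MR replicate 3. Nr4a1 was at a log2 fold change of 0.47 (adjusted p = 0.527) and Fosb at 2.01 (adjusted p = 0.444), and the value of Fosb came from MR replicate 3, at 4.53 CPM against 0.301 to 0.405 CPM in the other MR libraries.

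Likeness over the 8 libraries was sought among 12177 genes averaging at least 1 CPM, with the members and predicted genes (Gm and Rik names) left out. The transcripts most like Fkbp5 were Mpped2, Ddx19a, Cdk2 and Ccdc32, with Pearson likeness of log2 CPM between 0.95 and 0.959. Mpped2 had 16.4, 15.0, 17.8 and 13.3 CPM in MR, against 21.1, 17.1, 17.2 and 21.5 CPM in Sham, the same order of low MR libraries with MR replicate 3 highest. The transcripts most like Nr3c1 were Prune2, Plxna1, Myh10 and Ttc7b (0.977 to 0.986). Prune2 had 381, 307, 398 and 355 CPM in MR, against 206, 326, 332 and 264 CPM in Sham, again lowest in Sham replicates 1 and 4. These values include the difference between the groups and are the highest of many, and no p is given for them.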

How the data were processed

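The deposited file is a table of raw read counts, 1 row per Ensembl mouse gene and 1 column per library, on which the authors recorded no normalization. The submitters' processing notes list HISAT2 2.0.5 and mm10 without saying what each did. Per the labels' protocols, snap-frozen tissue was powdered, RNA was taken up in TRIzol and an ABclonal kit was used. How reads were assigned to genes, with which annotation and strand setting, is not given in the sources used here. Columns were matched to libraries by title, and groups came from the treatment label. The title numbers form a separate block in each group, so any handling that follows them cannot be told apart from MR. The labels do not say that each library is a separate animal, so p-values cover the spread among libraries, which may be technical.

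Symbols, positions and exon lengths came from GENCODE M21 (GRCm38, the assembly that mm10 names): 32350 genes matched and 755 did not. In R 4.3.3, edgeR 4.0.16 kept the 16603 genes that passed filterByExpr (a minimum count of 10 and a minimum total of 15), scaled libraries by TMM and applied its quasi-likelihood F test, robustly moderated. Adjusted p-values are Benjamini-Hochberg over all genes tested, with a threshold of 0.05. A standard error is the size of the log2 fold change over the root of F. The procedure was tested on simulated counts. Alternatives were RLE or total scaling, other filters, no robust moderation, DESeq2 1.42.0, limma-voom with quality weights (limma 3.58.1), removal of a trend with exon length, and each library left out.

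The members and lists were chosen with earlier results of these data known. The genes named are the 10 members, the called genes and up to 4 lowest p-values of each list, markers by list, and the 4 genes most like Fkbp5 and Nr3c1. Hsd11b2 and H6pd, the single markers and, for a second tool's calls, Mrc1, Acta2, Nppa and Bcl6 are named outside that rule, after their values were seen.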

Additional observations from a re-analysis of the deposited data

Results flagged for a closer look

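Libraries far from the other 3 of their group were sought in 38 of the named genes, in 76 groups of 4, where chance flags about 1 in 20. The 38 were the members, the list genes called or lowest in p, and the genes most like Fkbp5 and Nr3c1. Hsd11b2, H6pd, Bcl6 and the markers were not searched, so Nppa in MR replicate 3, described above, is not counted. In all, 7 were found, each in an MR group, and 4 of them concern MR replicate 3. Tsc22d3 was at 86.0 CPM in MR replicate 3, with the next MR library at 66.7 CPM, and Fam107a was at 11.2 CPM there, with the next at 6.96 CPM. Fosb was at 4.53 CPM in the same library, with the next at 0.405 CPM, and Nrip1 at 34.0 CPM, with the next at 28.4 CPM. Zbtb16 was at 80.8 CPM in MR replicate 2, with the next MR library at 111 CPM, and Ttc7b at 54.2 CPM there, with the next at 58.2 CPM. Mmp9 was at 0.567 CPM in MR replicate 1, with the next at 0.443 CPM.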

How the results depend on the processing

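The count of genes past the threshold, 76 with all libraries, was 936 with no filter, 244 with the length trend removed, 688 in DESeq2 and 429 in limma-voom, and leave-one-out fits gave 3 (without Sham replicate 2) to 887 (without Sham replicate 3). Scaling by totals gave 53 higher and 17 lower (75.7% higher, against 52.6%). Among the members the count of 1 was 0 under total scaling and under the filter of 1 CPM, 5 with no filter, and 2 with the length trend removed, in DESeq2 and in limma-voom (Fam107a and Hif3a in each of these 3). Leave-one-out fits gave 0 to 2. Among the list genes the count of 4 was 14 with no filter, 2 under the filter of 1 CPM (Foxo3 and Sele were lost, at adjusted p 0.0527 and 0.0512), 12 in DESeq2 and 7 in limma-voom, and 0 to 9 in leave-one-out fits. The cause of these shifts was not tested, and fits that leave out a library also have a smaller group. The log2 fold changes of the members moved by less than their spread between replicates under all 16 alternatives, with a change of sign in Hsd11b1 and Zbtb16 only. No tested list gene whose values are given changed sign. Over these settings 26 calls of list genes were lost and 31 gained. No paired analysis was possible because the labels name no pairing of MR with Sham libraries. The replicate numbers used here follow the order of the samples within each group. By their lowest library, counts were lowest for Hif3a among the members and for Cxcl10, Fosb and Mmp9 among the list genes named and tested.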
